A study of Mus musculus with 6 samples.

Results

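A set of 10 genes of the melanocyte lineage and of the neural crest was followed in YUMM3.3 melanomas from mice given water or rigosertib (RGS). The set was taken by gene symbol and holds *Mitf*, *Sox10*, *Sox9*, *Pax3*, *Tyr*, *Tyrp1*, *Dct*, *Pmel*, *Mlana* and *Ngfr*, 10 of the 40166 genes in the count table, and each symbol had 1 row. The question put to them was whether the tumors sat on the pigmented side of melanoma or on its dedifferentiated side, and whether RGS moved them. The pigment side was nearly silent: *Tyr*, *Dct* and *Mlana* had 0 counts in all 6 tumors, *Tyrp1* had 2 counts in 1 tumor, and *Pmel* had at most 25. *Sox9* rose 2.78-fold and *Ngfr* 2.89-fold with RGS, with no overlap between the groups, whereas the *Mitf* difference did not pass the test. Of all tested genes 16.3% were called higher, and the groups did not overlap for 45.8%.

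YUMM3.3 is a *Braf*-mutant, *Cdkn2a*-null melanoma line made from a genetically engineered C57BL/6 mouse. The cells were injected under the skin of C57BL/6 mice of 8 to 10 weeks, so each library could also hold RNA from host cells. Vehicle tumors (libraries numbered 7, 8 and 9) received water, dose 0 mg/kg, and RGS tumors (libraries 10, 11 and 12) received 300 mg/kg by oral gavage, both on 5 days a week. RGS is a small molecule developed as an inhibitor of the RAS, RAF and PI3K pathways, and tumors were taken after 17 days of treatment. The sex of these mice is not given in the labels, and neither is a tie of each library to a separate animal, so the p-values measure the spread between these samples, which may be technical.

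Melanocytes arise from the neural crest, a migratory population at the edge of the embryonic neural tube. PAX3 and SOX10 switch on *Mitf*, and MITF, a basic helix-loop-helix factor that recognises E-boxes, drives the pigment enzymes and the melanosome proteins. Melanoma cells can lose this program and take up a state with low SOX10 and MITF, in which SOX9 and receptor tyrosine kinases are often high, or a neural crest-like state marked by the neurotrophin receptor NGFR (p75, CD271). Pigment itself is made from tyrosine inside melanosomes by tyrosinase and its relatives TYRP1 and DCT.

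Library totals were 22793087 to 32555494 counts in vehicle tumors and 13837932 to 21617368 in RGS tumors, so the shallowest vehicle library still exceeded the deepest RGS library. CPM values, counts per 1000000 counts of the library, were taken on totals scaled by TMM factors of 0.920 to 1.08. A count of 3, used here as the floor, was worth 0.0856 to 0.226 CPM, and this covers counting error only. Of all genes, 43.27% had no count in any tumor. A gene was tested when its median count reached 5 in at least 1 group, and of the 15355 genes tested with edgeR's quasi-likelihood test 16.3% were called higher and 16.5% lower with RGS (Benjamini-Hochberg adjusted p under 0.05). An exact permutation test of 3 against 3 tumors cannot go below p = 0.1. In bulk tumors, fewer cells of a type and less RNA per cell cannot be told apart.

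The tumors were labelled melanoma, and of 7 markers of melanocytes (*Tyr*, *Tyrp1*, *Dct*, *Pmel*, *Mlana*, *Mitf* and *Sox10*) only *Mitf* was above the floor in every tumor. Markers of macrophages, T cells and endothelium were mostly at or near 0. *Adgre1* of macrophages, *Cd3e* and *Cd8a* of T cells and *Erg* and *Emcn* of endothelium had 0 counts in all 6 tumors. The macrophage markers *Csf1r*, *Lyz2*, *C1qa*, *C1qb* and *Mrc1* had at most 7 counts in any tumor. Of endothelial markers, *Kdr* had at most 6, *Tek* at most 14 and *Pecam1* at most 22. From the same lists, *Cd68* was at 58.8 to 87.7 CPM, and *Cd14* (3.16-fold), *Cdh5* (11.1-fold) and *Egfl7* (2.14-fold) were called higher with RGS by edgeR. *Trac*, of T cells, had 0 counts in vehicle tumors and 30, 16 and 10 in RGS tumors. From the same list, *Lck* had 27, 55 and 70 counts in vehicle and 16, 33 and 19 in RGS tumors, which did not pass. *Cd4* had 14 counts in vehicle 9 and 0 in every other tumor.

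**Figure D1:**
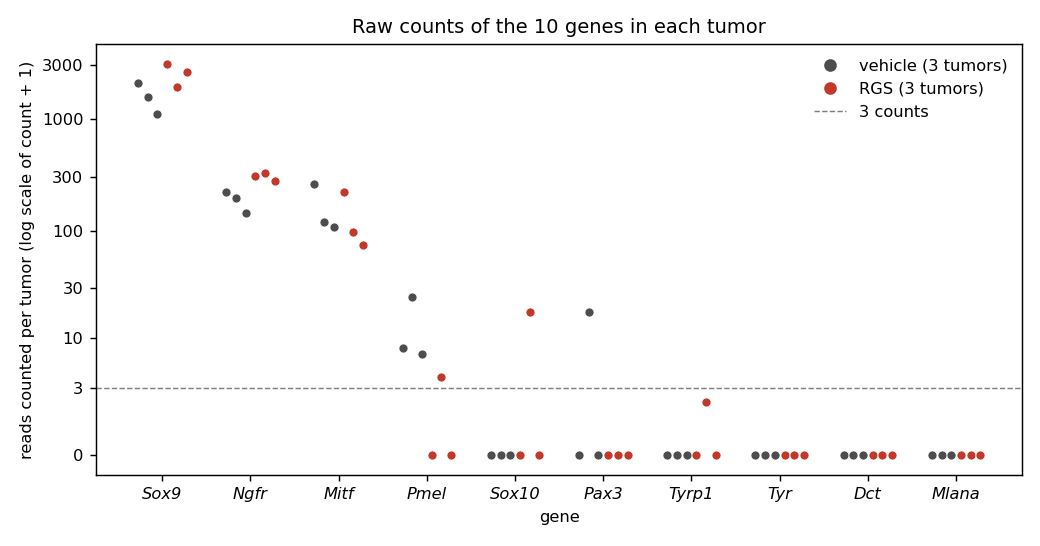
Raw counts of the 10 genes in each tumor on a log scale of the count plus 1, with vehicle tumors in grey, RGS tumors in red and the floor of 3 counts dashed. *Sox9*, *Ngfr* and *Mitf* were counted in all 6 tumors, *Sox10*, *Pax3* and *Tyrp1* in 1 tumor each, and *Tyr*, *Dct* and *Mlana* in none.

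*Mitf*, the master regulator of the melanocyte lineage, was expressed in all 6 tumors at a low level. It lies on chromosome 6, 97807052 to 98021349 on the plus strand of GRCm38 (ENSMUSG00000035158.15). Its counts were 261, 120 and 108 in vehicle tumors 7, 8 and 9 and 221, 97 and 74 in RGS tumors 10, 11 and 12. As CPM these were 7.45, 4.27 and 4.64 against 10.5, 7.30 and 4.53. The groups overlapped: RGS 12 lay between vehicle 8 and vehicle 9, and RGS 11 just below vehicle 7. The means were 5.45 ± 1.74 CPM in vehicle and 7.43 ± 2.97 CPM in RGS tumors (SD, n = 3 each). The edgeR log2 fold change was 0.45 (SE 0.41, 95% interval -0.42 to 1.31, adjusted p = 0.440), which leaves room for a small fall or for a rise of more than 1 on the log2 scale. It was 0.11 without RGS 10 and 0.74 without vehicle 7. A processed pseudogene, *Gm15531*, overlaps 252 bases of *Mitf* and had no counts.

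*Sox10* and *Pax3*, the neural crest factors upstream of *Mitf*, were each seen in 1 tumor only. *Sox10* (ENSMUSG00000033006.10, chromosome 15, 79154908 to 79165240, minus strand) had 18 counts in RGS 11, or 1.36 CPM (1 library), and 0 in the other 5 tumors. *Pax3* (ENSMUSG00000004872.15, chromosome 1, 78101267 to 78197134, minus strand) had 18 counts in vehicle 8, or 0.641 CPM, and 0 elsewhere. Neither had a median of 5 counts in any group, so neither was tested. Such single-library counts occurred across the table: 792 genes (1.972%) had at least 10 counts in 1 tumor and none in the other 5, among them 109 genes in RGS 11 and 141 in vehicle 8. Of markers of Schwann cells, another *Sox10*-expressing type, RGS 11 had 0 counts of *Mbp* and *S100b*, 34 of *Prx* and 43 of *Pmp22*. Of markers of skeletal muscle, whose precursors use PAX3, vehicle 8 had 25 counts of *Acta1* (0 and 2 in vehicle 7 and 9, 14 in RGS 12). For *Tnnt3* it had 99 (101 and 69 in vehicle 7 and 9) and for *Mylpf* 126 (121 and 176). Vehicle 8 also had 1 count of *Myf5* and 0 of *Myod1*, *Ckm*, *Myh1* and *Myh4*. The part of other cell types in these *Sox10* and *Pax3* counts was not tested.

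*Sox9*, an HMG-box factor of neural crest, cartilage and hair follicle that is high in undifferentiated melanoma, was the most abundant of the 10 genes. It lies on chromosome 11, 112782224 to 112787760 on the plus strand (ENSMUSG00000000567.5). Vehicle tumors had 2107, 1575 and 1105 counts and RGS tumors 3120, 1928 and 2647. Raw counts overlapped because the RGS libraries were shallower, and on the CPM scale the values were 60.1, 56.1 and 47.5 against 147.6, 145.2 and 161.9. On this scale every RGS tumor lay above every vehicle tumor. Means were 54.6 ± 6.45 and 151.6 ± 9.01 CPM (SD, n = 3 each), and the log2 fold change was 1.47 (SE 0.16, 95% interval 1.13 to 1.81, edgeR adjusted p = 1.527e-06). It stayed between 1.33 and 1.55 under all 18 alternatives. Among protein-coding genes ordered by CPM per kilobase of deposited gene length, *Sox9* went from percentiles 80.6 to 83.8 in vehicle tumors to percentiles 92.6 to 93.0 in RGS tumors.

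Of 6 cartilage markers 1 was tested and none was called. Summed they came to 0.430 to 1.14 CPM in vehicle and 0.142 to 0.489 CPM in RGS tumors, with *Acan* and *Col9a1* at 0 throughout. *Col2a1*, a collagen gene that SOX9 activates in cartilage, had 25, 29 and 9 counts in vehicle and 3, 1 and 8 in RGS tumors, a difference that did not pass. The 8 keratinocyte markers summed to 4.49 to 7.42 CPM in vehicle and 33.3 to 40.1 CPM in RGS tumors. Most of it came from *Sfn*, at 3.53 to 6.99 CPM in vehicle and 32.5 to 37.4 CPM in RGS tumors. *Krt10* had 0.399 to 1.63 CPM in vehicle and 0.852 to 2.56 CPM in RGS tumors. *Krt1*, *Trp63* and *Dsg3* were at 0, and *Krt5* and *Krt14* had no more than 2 counts. Their part in the *Sox9* result was not tested.

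**Figure D2:**
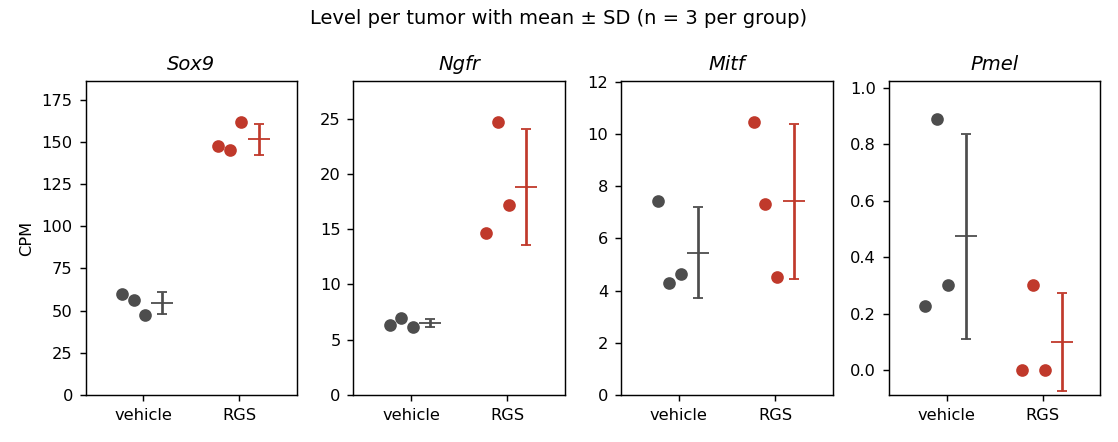
Level in CPM of the 4 tested genes in each tumor (points), with the group mean and SD (bars, n = 3), each panel on its own linear scale. For *Sox9* and *Ngfr* every RGS tumor lies above every vehicle tumor, while the groups overlap for *Mitf* and *Pmel*.

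The 3 pigment enzymes were at or under the floor in every tumor. *Tyr* (tyrosinase, which carries out the rate-limiting step of melanin synthesis; ENSMUSG00000004651.6, chromosome 7, 87424771 to 87493512, minus strand) had 0 counts in all 6 tumors. *Dct* (dopachrome tautomerase; ENSMUSG00000022129.4, chromosome 14, 118012790 to 118052244, minus strand) also had 0 in all 6, and so did the antisense gene *4930435M08Rik*, which shares 1891 bases with it. *Tyrp1* (ENSMUSG00000005994.14, chromosome 4, 80834123 to 80851719, plus strand) had 2 counts in RGS 11 and 0 in the other tumors. A count of 0 allows a level of up to 0.0856 to 0.226 CPM at these depths, and no difference between the groups was detectable. *Mitf* at 4.27 to 10.5 CPM was therefore measured in tumors where these 3 well-known targets were at or under the floor.

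The promoters of these targets are shown because they carry the element through which MITF acts on them. The table of RefSeq promoters used here (GRCm38.p6) was matched for 5 of the 10 genes (*Tyr*, *Tyrp1*, *Dct*, *Ngfr* and 3 start sites of *Mitf*). The core of the M-box, TCATGTG on either strand, stood within 250 bases before the RefSeq start site of *Tyr*, *Tyrp1* and *Dct*, and in 3.25% of the 32851 promoters searched. For *Tyrp1* this start site is 80834213, while the gene span given above begins at 80834123. The *Tyrp1* core therefore lay inside that span, within an annotated exon. It includes the E-box CATGTG, which was in 12.3% of promoters. The windows below run 5′ to 3′ on the gene's strand, with the M-box core in capitals (in its reverse orientation in the second *Dct* window).
Tyr, chr7:87493516-87493545, minus strand, 22 bases before the start: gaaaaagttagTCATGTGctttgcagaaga
Tyrp1, chr4:80834155-80834184, plus strand, 47 bases before the RefSeq start: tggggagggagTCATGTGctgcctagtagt
Dct, chr14:118052379-118052408, minus strand, 151 bases before the start: tgcacttagggTCATGTGctaacaaagagg
Dct, chr14:118052460-118052489, minus strand, 232 bases before the start: cttggctgggaCACATGAgcccaataaaga
A match to these letters describes the sequence and is no measure of binding.

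*Mitf* has several promoters, and the one nearest its 3′ end of those listed starts the melanocyte form. Its start site, at 97991783, was preceded by a cyclic AMP response element, TGACGTCA, the site through which melanocortin signalling reaches *Mitf*. This element was in 1.55% of promoters and in neither of the other 2 *Mitf* promoters nor in that of *Ngfr*. The window is shown with the element in capitals.
Mitf, chr6:97991619-97991648, plus strand, 153 bases before the start: gaaaaaaagcaTGACGTCAagccagcaggg
The counts are per gene, so which *Mitf* start site was used in these tumors was not measured. *Mc1r*, the melanocortin receptor, had 2, 8 and 1 counts in vehicle tumors and 15, 0 and 0 in RGS tumors, and *Pomc*, the gene of its ligand, had 0 in all 6.

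*Pmel* and *Mlana* encode melanosome proteins, the fibril-forming amyloid of the early melanosome and the melanoma antigen MART-1. *Mlana* (ENSMUSG00000024806.3, chromosome 19, 29697921 to 29708448, plus strand) had 0 counts in all 6 tumors. *Pmel* (ENSMUSG00000025359.10, chromosome 10, 128704195 to 128720238, plus strand) had 8, 25 and 7 counts in vehicle tumors and 0, 4 and 0 in RGS tumors, or 0.228, 0.890 and 0.301 against 0, 0.301 and 0 CPM. RGS 11 reached the level of vehicle 9, so the groups overlapped. The log2 fold change was -2.29 (SE 1.69, 95% interval -5.83 to 1.26, edgeR adjusted p = 0.325), and it ran from -1.42 without vehicle 8 to -6.57 without RGS 11.

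The few *Pmel* reads are uncertain for a further reason. *Pmel* shares 837 bases with *Cdk2* and 105 bases with *Dgka*, both on the opposite strand, and the strand setting of the counting is not given in the sources used here. *Cdk2*, a cell cycle kinase, had 995, 735 and 702 counts in vehicle tumors and 252, 261 and 129 in RGS tumors, a log2 fold change of -1.11 (edgeR adjusted p = 0.00529). *Dgka* had 782, 694 and 594 against 354, 298 and 289 counts (log2 fold change -0.35, edgeR adjusted p = 0.244). Without that setting, it is not known whether reads in the shared bases were told apart by strand.

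*Ngfr*, the receptor that binds all neurotrophins with low affinity and marks neural crest stem cells, was the other gene that rose. It lies on chromosome 11, 95568818 to 95587735 on the minus strand (ENSMUSG00000000120.6). Vehicle tumors had 223, 195 and 144 counts and RGS tumors 309, 328 and 281, so the groups were apart even in raw counts although the RGS libraries were shallower. On the CPM scale the values were 6.36, 6.95 and 6.19 against 14.6, 24.7 and 17.2. The vehicle tumors lay close together, and RGS 11 stood highest. Means were 6.50 ± 0.397 and 18.8 ± 5.24 CPM (SD, n = 3 each), with a log2 fold change of 1.53 (SE 0.29, 95% interval 0.92 to 2.14, edgeR adjusted p = 4.794e-04). Without RGS 11 it was 1.28, the lowest of the 18 alternatives, and the highest was 1.69, with adjusted p at most 0.00428.

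Schwann cells also carry NGFR. Of their 5 tested markers 2 were called lower and none higher with RGS, beside 16.5% lower and 16.3% higher of all tested genes. The 8 of 9 Schwann cell markers analysed summed to 20.1 to 22.5 CPM in vehicle and 6.33 to 16.1 CPM in RGS tumors. *Mal* was at 0 throughout, and *Mbp* fell from 30, 24 and 29 counts to 0 in all 3 RGS tumors. *S100b*, not tested, had 9 counts in vehicle 8, 48 in RGS 10 and 0 elsewhere. *Pmp22* had 9.61, 9.76 and 9.02 CPM in vehicle and 7.19, 3.24 and 10.2 CPM in RGS tumors. *Ncmap* had 3, 19 and 11 counts in vehicle and 26, 0 and 5 in RGS tumors. Neither *Pmp22* nor *Ncmap* passed. Pericyte and smooth muscle markers were split. *Rgs5* rose, with 48, 40 and 26 counts in vehicle against 8728, 4882 and 6916 in RGS tumors. Through this gene the 8 markers summed to 172 to 237 CPM in vehicle and 442 to 505 CPM in RGS tumors. *Des*, at 0 in vehicle tumors and at 24, 5 and 5 counts in RGS tumors, was also called higher. *Kcnj8* and *Abcc9* of the same list were at 0 in all tumors, and *Acta2*, *Cspg4* and *Cnn1* fell. The 8 endothelial markers also summed higher, 23.5 to 32.0 CPM in RGS against 8.82 to 14.1 CPM in vehicle tumors. The rise came mainly from *Egfl7* (mean 8.75 CPM in vehicle, 18.7 CPM in RGS tumors) and *Cdh5* (0.555 and 6.20 CPM). *Pecam1*, *Tek* and *Vwf* did not pass, *Kdr* was not tested, and *Erg* and *Emcn* were at 0 throughout. The 8 fibroblast markers were split: *Col1a2* and *Pdgfra*, which make up most of the sum of 364.6 to 553.7 CPM in vehicle and 273.5 to 305.1 CPM in RGS tumors, fell, *Dcn* rose 9.44-fold, and the other 3 tested did not pass. The part of these markers in the *Ngfr* result was not tested.

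Per kilobase of gene length, the order of the 4 tested genes was *Sox9*, *Ngfr*, *Mitf* and *Pmel* in both groups. In vehicle tumors they were at 13.2 ± 1.56, 1.89 ± 0.115, 0.880 ± 0.280 and 0.206 ± 0.158 CPM per kilobase (SD, n = 3). In RGS tumors they were at 36.7 ± 2.18, 5.47 ± 1.52, 1.199 ± 0.479 and 0.0438 ± 0.0759 CPM per kilobase (SD, n = 3). No tumor of a group crossed between neighbours in this order. *Ngfr* stood at percentiles 55.0 to 56.2 of protein-coding genes in vehicle and 65.6 to 73.2 in RGS tumors, and *Mitf* at 48.3 to 51.4 and 49.3 to 55.3.

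Of the 10 genes, 4 were tested with edgeR, 2 were higher and none was lower. The other tools and settings tested 3 to 7 of the 10 and called the same 2 genes higher and none lower. At an unadjusted p under 0.05 the number was also 2. The median log2 fold change of the 4 was 0.96, beside -0.05 over all tested genes. With 16.3% of all tested genes called higher, 2 of 4 is too few to read as a property of the set, and the result rests on each gene's own values.

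Genes with related roles were taken from 6 lists, written with earlier results of these data known. They held 126 genes, of which 122 were in the table and 93 were tested. Of these 25 were higher (26.9%) and 20 lower (21.5%) with RGS, against 16.3% and 16.5% of all tested genes, and 48 did not pass. On totals without TMM scaling the split was 17 higher and 24 lower.

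Among paralogs of the factors, *Tfe3*, a sister of MITF that governs lysosome genes, rose. It had 69.8, 49.0 and 55.9 CPM in vehicle and 95.5, 96.5 and 113 CPM in RGS tumors, without overlap (log2 fold change 0.80, SE 0.17, edgeR adjusted p = 0.00158). *Tfeb*, the other sister, averaged 6.76 ± 0.451 and 9.82 ± 2.20 CPM (SD, n = 3), and its log2 fold change of 0.54 did not pass (edgeR adjusted p = 0.237). *Tfec* and *Pax7* had 0 counts in all tumors, and *Sox8*, which belongs with *Sox9* and *Sox10*, had 1 and 9 counts in RGS 10 and 12. Per kilobase of gene length *Tfe3* stood above *Mitf* and *Tfeb*, at 6.29 CPM per kilobase in vehicle and 10.98 CPM per kilobase in RGS tumors.

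Receptors and regulators of *Mitf* gave 3 higher and 5 lower of 12 tested genes (25% and 41.7%, median log2 fold change -0.55). Of all tested genes 16.3% were higher and 16.5% lower. *Tfap2a*, a factor of neural crest and melanocytes, rose from 73.8 ± 8.19 to 143.8 ± 21.3 CPM (SD, n = 3; log2 fold change 0.96, edgeR adjusted p = 2.07e-04). *Smarca4*, the BRG1 remodeller that MITF and SOX10 recruit, rose from 110.6 ± 25.3 to 193.3 ± 13.1 CPM (0.80 on the log2 scale, edgeR adjusted p = 0.00136). *Ctnnb1*, β-catenin, went from 489 ± 40.8 to 679 ± 98.6 CPM (0.47 on the log2 scale, edgeR adjusted p = 0.0247), a call lost without vehicle 8, vehicle 9, RGS 10 or RGS 12, with an adjusted p of up to 0.127.

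On the lower side, 5 regulators fell. *Edn1*, a ligand of the endothelin receptor of melanoblasts, had 83, 110 and 90 counts in vehicle tumors and 0, 2 and 0 in RGS tumors (edgeR adjusted p = 6.46e-04). From 283 against 2 counts, the level as CPM was 83.1 times higher in vehicle tumors (95% interval 22.8 to 689.9, for counting error only). *Pou3f2* (BRN2), a POU factor of invasive, low-MITF melanoma, had 114, 128 and 121 counts against 2, 1 and 9 (log2 fold change -4.14, SE 0.86, edgeR adjusted p = 0.00110). *Bhlhe40*, a repressor that acts on E-boxes, fell from 79.2 ± 13.9 to 24.7 ± 4.15 CPM (-1.68 on the log2 scale, edgeR adjusted p = 3.20e-06). *Zeb2*, a factor of differentiated melanocytes, fell from 88.6 ± 17.7 to 46.1 ± 4.88 CPM (-0.94, edgeR adjusted p = 5.87e-04). The fifth was *Kitl*, the ligand of KIT, named after its values were seen, at 167, 155 and 147 against 86.5, 89.2 and 87.5 CPM. Its receptor *Kit*, along with *Edn3*, *Irf4* and *Otx2*, had 0 counts in all tumors.

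Genes of melanosome transport, biogenesis and pigment, most of which also serve lysosomes in other cells, gave 2 higher and 6 lower of 27 tested (7.41% and 22.2%, median log2 fold change -0.18). Among the 33 listed, *Oca2*, *Slc45a2* and *Gpr143*, which act in the melanosome membrane of pigment cells, and *Exph5* had 0 counts in all 6 tumors. Low counts were seen for *Slc24a5*, with 21, 63 and 43 in vehicle and 0, 2 and 38 in RGS tumors. *Trpm1* had 14, 7 and 4 in vehicle tumors and 0 in every RGS tumor. Neither passed (edgeR adjusted p = 0.618 and 0.0679), and both were named after their values were seen. *Gpnmb*, also named after its values were seen, was abundant in every tumor. It had 302, 276 and 228 CPM in vehicle and 201, 189 and 217 CPM in RGS tumors, and did not pass (edgeR adjusted p = 0.0508). *Slc7a11*, the cystine transporter that sets the amount of red pigment and feeds glutathione, rose from 230 ± 57.5 to 464.6 ± 65.9 CPM (log2 fold change 1.01, edgeR adjusted p = 2.69e-04). *Hps1*, a subunit of BLOC-3, was the other higher gene (0.64, edgeR adjusted p = 0.0139), and lost the call without vehicle 9 or RGS 11 (adjusted p up to 0.0777). *Bloc1s2*, a subunit of BLOC-1, fell from 56.4 ± 21.6 to 22.2 ± 4.04 CPM (-1.34, edgeR adjusted p = 4.11e-04), and *Myo5a*, the motor that carries melanosomes to the cell edge, from 107 ± 23.8 to 60.1 ± 8.15 CPM (-0.84, edgeR adjusted p = 0.00174). *Rab32* (-0.98, edgeR adjusted p = 0.0142) and *Hps4* (-0.89, edgeR adjusted p = 0.0161) were lower too. Their calls were lost, respectively, without vehicle 9 (adjusted p = 0.0580) and without RGS 12 (adjusted p = 0.0542).

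**Figure D3:**
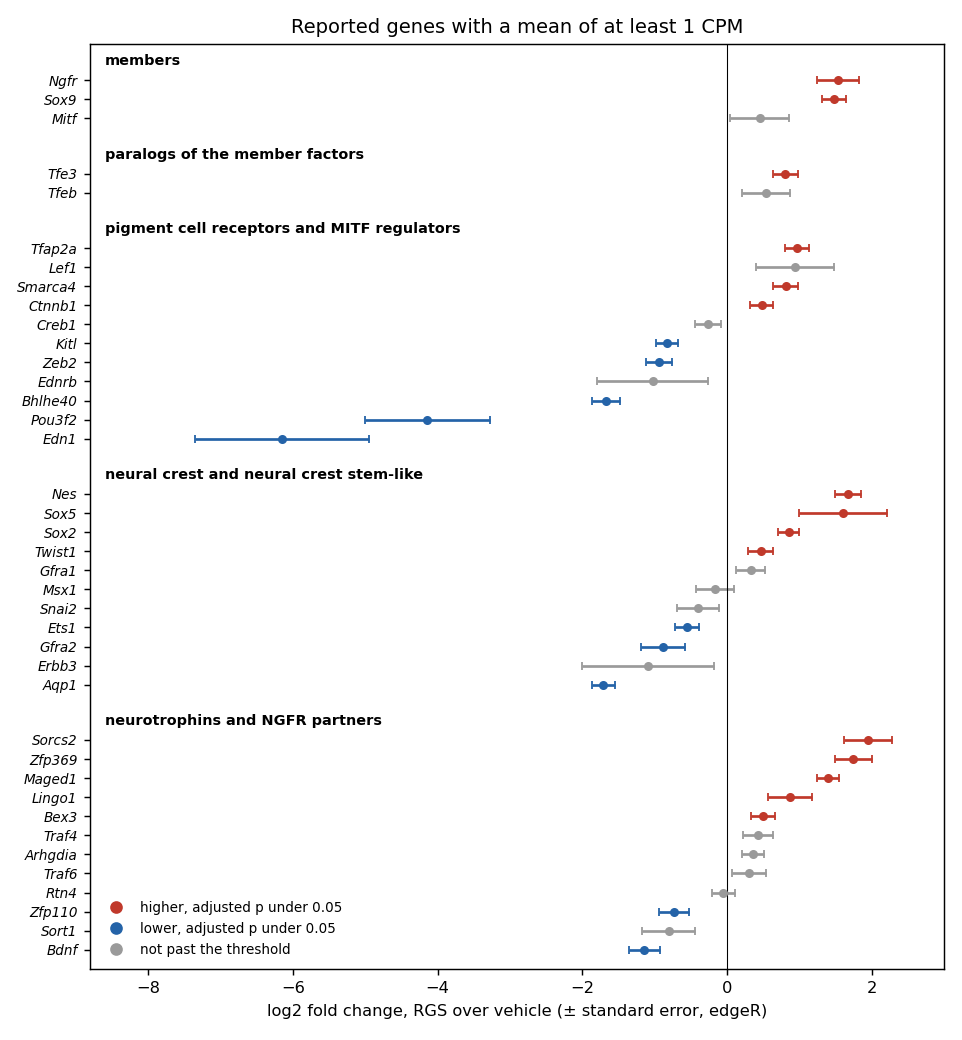
Fitted log2 fold change of RGS over vehicle (points) with its standard error (bars) for *Ngfr*, *Sox9*, *Mitf* and the reported related genes with a mean of at least 1 CPM in 4 of the 6 lists, coloured by call at an adjusted p under 0.05. *Ngfr* and *Sox9* lie at 1.53 and 1.47, and the point for *Edn1* rests on 2 counts in RGS tumors, so its place depends on the prior count of the fit.

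Neural crest genes were split, with 4 higher and 3 lower of 13 tested (30.8% and 23.1%, median log2 fold change -0.17). The shares over all tested genes were 16.3% and 16.5%. *Nes*, the intermediate filament nestin of neural progenitors, had 232, 156 and 147 CPM in vehicle and 606, 511 and 576 CPM in RGS tumors (log2 fold change 1.66, SE 0.18, edgeR adjusted p = 1.26e-06). *Sox2*, a factor of neural progenitors, was abundant and rose from 183 ± 13.4 to 330 ± 13.7 CPM (0.85, edgeR adjusted p = 1.99e-04). *Twist1* (0.46, edgeR adjusted p = 0.0449) and *Sox5* (1.599, edgeR adjusted p = 0.04997) only just passed, and for *Sox5* the groups overlapped. *Twist1* lost its call without vehicle 8, vehicle 9, RGS 11 or RGS 12 (adjusted p up to 0.323), and *Sox5* without vehicle 8, vehicle 9, RGS 10 or RGS 11 (adjusted p up to 0.295, log2 fold change 0.99 without RGS 10). With the other tools and settings included, the call was lost in 8 of 18 alternatives for *Twist1* and in 10 of 18 for *Sox5*.

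*Aqp1*, a water channel used as a marker of neural crest stem-like melanoma cells alongside *Ngfr*, fell. It had 1022, 1104 and 968 CPM in vehicle and 362, 298 and 286 CPM in RGS tumors (log2 fold change -1.71, edgeR adjusted p = 1.48e-07). *Gfra2*, a GDNF-family receptor that marks the same state, fell from 13.0 ± 1.07 to 7.02 ± 0.865 CPM (-0.89, edgeR adjusted p = 0.0301). The *Gfra2* call was lost without any single vehicle tumor or without RGS 11 (adjusted p up to 0.118). *Ets1* fell from 154 ± 14.6 to 105 ± 16.8 CPM (-0.56, edgeR adjusted p = 0.0138) and was lost without RGS 11 or RGS 12 (adjusted p up to 0.0724). *Rxrg*, *Cdh19*, *Gfra3* and *Zic1* of the same list had 0 counts in all tumors. *Ngfr* thus rose in tumors in which *Aqp1* and *Gfra2* fell and *Rxrg* was not counted.

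Genes of undifferentiated melanoma gave 10 higher and 4 lower of 23 tested (43.5% and 17.4%, median log2 fold change 0.14). *Nt5e* (CD73, which makes adenosine from AMP) rose from 25.6 ± 4.49 to 82.9 ± 5.68 CPM (log2 fold change 1.698, edgeR adjusted p = 1.36e-06). *Inhba*, the activin A subunit, rose from 126 ± 8.88 to 298 ± 30.0 CPM (1.24, edgeR adjusted p = 5.67e-06). The matrix genes *Tgfbi* (1.204, edgeR adjusted p = 9.70e-05) and *Tnc*, tenascin C (1.175, edgeR adjusted p = 5.75e-05), rose as well. Among the 4 that fell, *Pdgfrb* had 18.5, 14.5 and 10.6 CPM in vehicle and 4.12, 3.31 and 2.02 CPM in RGS tumors (-2.20, edgeR adjusted p = 1.79e-04). *Vim*, vimentin, was at 6898 ± 511 CPM in vehicle and 3733 ± 167 CPM in RGS tumors (-0.89, edgeR adjusted p = 1.01e-04). *Axl*, the receptor kinase by which the low-MITF state is often named, was abundant and fell from 1325 ± 281 to 804 ± 94.9 CPM (-0.72, edgeR adjusted p = 0.00287). *Sox9* and *Axl*, both features of that state, therefore moved in opposite directions.

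Ligands and partners of NGFR gave 5 higher and 2 lower of 16 tested (31.2% and 12.5%, median log2 fold change 0.33). *Bdnf*, a ligand, fell from 34.7 ± 4.05 to 15.7 ± 2.27 CPM (-1.14, edgeR adjusted p = 5.02e-04). *Ntrk2*, the high-affinity receptor of BDNF, and *Ntrk3*, which binds a related neurotrophin, were barely counted, with at most 9 counts of either in any tumor.

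Several partners inside and beside the receptor rose. *Sorcs2*, a co-receptor of NGFR for pro-neurotrophins, had 5.28, 3.38 and 4.17 CPM in vehicle and 17.4, 11.97 and 20.2 CPM in RGS tumors (log2 fold change 1.95, SE 0.33, edgeR adjusted p = 1.70e-04). *Maged1* (NRAGE), which binds the intracellular part of NGFR, rose from 219 ± 21.9 to 574 ± 60.0 CPM (1.39, edgeR adjusted p = 1.85e-06). *Zfp369* and *Zfp110* encode the related zinc finger proteins NRIF2 and NRIF, so reads of the 2 genes may be hard to place. *Zfp369* rose from 6.995 ± 0.606 to 23.4 ± 1.62 CPM (1.74, edgeR adjusted p = 3.91e-05). *Zfp110* fell from 37.4 ± 0.884 to 22.5 ± 4.53 CPM (-0.73, edgeR adjusted p = 0.0112), a call lost without vehicle 8 (adjusted p = 0.0519). *Lingo1*, a co-receptor with NGFR in neurons, had a log2 fold change of 0.87 (edgeR adjusted p = 0.0360) and lost its call without vehicle 8, vehicle 9, RGS 10 or RGS 12 (adjusted p up to 0.157). The fifth higher gene was *Bex3* (NADE), a death-related adaptor of NGFR named after its values were seen, at 125, 157 and 153 CPM against 167, 203 and 243 CPM. Its call was lost without RGS 11 or RGS 12 (edgeR adjusted p up to 0.208).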

How the data were processed

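Bulk RNA sequencing was available for 6 YUMM3.3 tumors. The deposited values are unnormalized read counts, a column for each tumor, beside every gene's length and position. The submitters' processing notes name cutadapt 1.18, FastQC 0.11.7, STAR 2.7.1a, featureCounts 1.6.4 and mm10. How strand and multiply mapping reads were handled in counting is not given in the sources used here. Columns were matched to samples by name.

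From the deposited counts, genes with a median of at least 5 counts in at least 1 group were tested in R 4.3.3 with edgeR 4.0.16 (TMM, quasi-likelihood F test, Benjamini-Hochberg over 15355 genes, adjusted p under 0.05). The SE is the size of the log2 fold change over the square root of F. DESeq2 1.42.0, limma 3.58.1, other scalings, filters and thresholds and leaving out each tumor were the alternatives. No 2 libraries of a group agreed within counting noise (chi-square per degree of freedom 20.5 to 137.8).

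The 10 genes and all lists were chosen with earlier results of these data known. Named genes were the 10 genes, their paralogs and overlapping genes, and, of each related list, up to 4 per direction with the largest log2 fold change among called genes with a mean of at least 1 CPM. *Asip*, *Foxd3*, *Dkk1*, *Rtn4r* and *Egr2* were not analysed here, and some listed genes are not reported here. Lists for mast cells (0 to 0.0712 CPM summed in vehicle and 0 to 0.237 CPM in RGS tumors), T cells (0.770 to 3.61 and 1.77 to 3.69), macrophages (65.1 to 71.0 and 83.0 to 106) and skeletal muscle (6.33 to 10.6 and 3.99 to 8.19) were also summed. Positions are those of the table, and 38927 of its gene identifiers had the same span in GENCODE M21, *Mlana* not among them.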

Additional observations from a re-analysis of the deposited data

How the results depend on the processing

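*Sox9* and *Ngfr* were the called members of the set under all 18 alternatives, and no member was called lower under any. Leaving out 1 tumor at a time gave log2 fold changes of 1.39 to 1.55 for *Sox9* and 1.28 to 1.68 for *Ngfr*. *Mitf* stayed short of the threshold throughout (0.11 to 0.74, adjusted p 0.149 to 0.872), and so did *Pmel* in the 15 alternatives that tested it (-6.57 to -1.42, adjusted p 0.0667 to 0.764). The cause was not tested. *Pmel* was left untested by edgeR's own filter, by a filter of 10 counts in 3 tumors and after thinning to the smallest library. Related genes called higher and lower numbered 25 and 20 in edgeR, 26 and 22 in DESeq2, 30 and 25 in limma voom, and 19 to 29 and 17 to 21 when 1 tumor was left out. When the log2 fold change had to reach 1 in size as well, they were 12 and 8. At an adjusted p under 0.01 they were 18 and 14. On plain library totals the median of all tested genes moved from -0.05 to -0.19, the calls became 1870 higher and 3152 lower against 2503 and 2533 (37.2% against 49.7% higher), and the related genes 17 and 24. *Sox9* was then at 1.33 and *Ngfr* at 1.39. Among the tested genes named from the set, the related lists and the overlaps (host cell markers, *Slc24a5*, *Trpm1* and *Gpnmb* were not run), none changed direction. Over all 18 alternatives, stricter thresholds included, the call was lost in 7 for *Ctnnb1* and *Lingo1* and in 6 for *Gfra2*. It was lost in 5 for *Hps1* and *Bex3*, in 4 for *Ets1* and *Rab32*, and in 3 for *Hps4* and *Zfp110*. Depth limits the genes at 0, for which the shallowest library allows up to 0.226 CPM.

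No paired analysis was possible because the libraries of the groups are numbered 7 to 9 and 10 to 12 and share no number.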
